A study of Mus musculus with 32 samples.

Results

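The genes described here encode the proteins of the mitochondrial ribosome. They were taken by symbol, as every gene in the deposited table whose symbol starts with Mrpl or Mrps followed by a digit, leaving out 5 pseudogenes. This gave 78 of the 57186 genes listed: 51 for proteins of the large subunit (the Mrpl genes with Mrps30 and Mrps18a, whose products sit there), 26 for the small subunit, and Mrps36, whose product is known as a component of the 2-oxoglutarate dehydrogenase complex. All 78 passed the filter on low counts, and 3 of them (Mrps18b, Mrpl23 and Mrps36) had a mean under 5 CPM (read counts scaled to a common library size) over all libraries.

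RNA came from 3T3-L1 adipocytes, fat cells obtained by differentiating a mouse preadipocyte line in culture, treated for 24 h before extraction. The 8 groups of 4 libraries were TNF-alpha (TNF) with SCO, TNF with CAP7, TNF with rosiglitazone (ROSI), TNF with the vehicle DMSO (called TNF below), SCO, CAP7, ROSI, and DMSO. Rosiglitazone activates PPARγ, a nuclear receptor without which fat cells do not form, and TNF is an inflammatory cytokine that lowers the expression of adipocyte genes. An extract of Artemisia scoparia is named in the title of the series and may be what SCO stands for, but the labels do not say so, and neither the nature of CAP7 nor any dose is given in the sources used here. All cells belong to 1 line and share its differentiation with insulin, dexamethasone and IBMX.

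Mitochondria keep their own ribosome, which makes the few respiratory chain and ATP synthase subunits that mitochondrial DNA (mtDNA) encodes. Its RNA comes from mtDNA, but all of its proteins are made in the cytosol from nuclear genes and imported. White fat cells gain mitochondria as they differentiate, and NRF1, GABPA (an ETS factor) and YY1 are transcription factors known to act on many nuclear genes for mitochondrial proteins, with PGC-1 coactivators and ERRα above them.

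Of the 78 genes, 69 had an entry in the RefSeq promoter table of build GRCm38.p6, which gives 250 bases before to 50 bases after the gene start. The files' own build is GRCm39, so these coordinates are from the RefSeq table alone. Promoters of 5 genes are shown because their responses, given below, differ: Mrps26 and Mrpl12 fell with TNF, Mrpl34 was among the 6 genes with the most negative change with TNF and the 6 with the most positive change with ROSI, Mrpl45 rose with the compounds but did not pass the test with TNF, and Mrpl52 rose with TNF. Capitals mark the motifs searched on both strands, GCGCNTGCG (NRF1 core) and CCGGAAG (ETS core). All 5 are on the plus strand, at chr2:130563507-130563806, chr11:120484387-120484686, chr8:71464676-71464975, chr11:97315466-97315765 and chr14:54426659-54426958.
Mrps26: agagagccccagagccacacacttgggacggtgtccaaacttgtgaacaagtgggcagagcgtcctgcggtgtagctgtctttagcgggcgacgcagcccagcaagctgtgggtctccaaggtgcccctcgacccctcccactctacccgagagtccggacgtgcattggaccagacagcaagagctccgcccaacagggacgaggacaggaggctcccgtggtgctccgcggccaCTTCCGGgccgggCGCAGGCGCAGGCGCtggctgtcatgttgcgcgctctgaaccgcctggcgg
Mrpl12: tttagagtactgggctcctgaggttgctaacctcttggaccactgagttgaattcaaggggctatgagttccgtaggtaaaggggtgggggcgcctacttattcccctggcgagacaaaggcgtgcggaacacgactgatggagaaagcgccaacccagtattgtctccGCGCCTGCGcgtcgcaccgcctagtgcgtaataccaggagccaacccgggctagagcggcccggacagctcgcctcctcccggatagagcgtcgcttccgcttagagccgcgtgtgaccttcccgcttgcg
Mrpl34: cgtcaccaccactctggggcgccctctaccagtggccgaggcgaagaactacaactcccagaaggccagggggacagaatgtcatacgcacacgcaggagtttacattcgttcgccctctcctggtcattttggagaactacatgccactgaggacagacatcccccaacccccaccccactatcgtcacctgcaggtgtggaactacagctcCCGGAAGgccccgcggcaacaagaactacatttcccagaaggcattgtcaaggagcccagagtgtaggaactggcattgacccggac
Mrpl45: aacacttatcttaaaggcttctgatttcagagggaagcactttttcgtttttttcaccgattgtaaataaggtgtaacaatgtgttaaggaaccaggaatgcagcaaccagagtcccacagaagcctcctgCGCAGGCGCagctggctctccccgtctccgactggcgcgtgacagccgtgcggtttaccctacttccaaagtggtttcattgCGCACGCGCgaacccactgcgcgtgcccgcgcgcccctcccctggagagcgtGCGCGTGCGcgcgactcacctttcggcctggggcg
Mrpl52: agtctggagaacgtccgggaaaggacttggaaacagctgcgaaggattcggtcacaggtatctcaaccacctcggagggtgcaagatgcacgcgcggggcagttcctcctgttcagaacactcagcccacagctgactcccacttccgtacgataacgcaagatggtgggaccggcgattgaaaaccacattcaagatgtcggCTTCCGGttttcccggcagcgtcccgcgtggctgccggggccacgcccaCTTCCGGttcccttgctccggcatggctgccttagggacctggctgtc

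Counted from the gene start, with the first transcribed base as 1, the Mrps26 promoter held an ETS core at -14 and a pair of NRF1 cores at -1 and 6 that overlap each other. The Mrpl12 promoter held an NRF1 core at -81 and the Mrpl34 promoter an ETS core at -37. The Mrpl45 promoter held 3 NRF1 cores, at -119, -37 and 16, and the Mrpl52 promoter ETS cores at -47 and 3. Over the 69 promoters, 18 (26.1%) held the NRF1 core, against 8.95% of 17492 promoters of protein-coding genes of the same length. The ETS core was in 25 (36.2%), against 11.9%, and the YY1 core AANATGGCG in 11 (15.9%), against 3.3%. The E-box CACGTG was in 5 (7.25%), against 7.9%. The NF-kB motif GGGANTTTCC and the DR1 motif, the element PPARγ is known to bind, were in 0 of the 69, against 0.39% and 0.36%. At shares this low, 0 of 69 is the likely count in any set, so it cannot show a lack of these sites. Either the NRF1 or the ETS core was in 36 of the 69 (52.2%), against 19.1%, and 24 held none of the motifs searched. Each promoter shown above held at least 1 of these cores, so they do not stand for all 69. The 69 promoters were 59.0% G and C, against 55.9%, and the part of base composition in these shares was not tested. The 18 genes with the NRF1 core had a median log2 fold change of -0.24 with TNF, against -0.26 for the 51 without it. The 25 with the ETS core had -0.19, against -0.32 for the 44 without it.

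Library totals ran from 11.31 M to 37.67 M counts (median 20.87 M), with a mean of 23.65 M with TNF and 18.47 M without it. Levels below are CPM after TMM scaling, a library factor from edgeR. Fold changes are log2 with standard errors from 1 edgeR fit to all 32 libraries, and a gene is called where its Benjamini-Hochberg adjusted p over the 14428 genes tested was under 0.05. Reads came from the 3' ends of transcripts, so levels were not divided by length and are not compared between genes. In these bulk samples, fewer cells of a type and less RNA per cell cannot be told apart. Of the 78 genes, 42 overlap another gene model in a GENCODE mouse annotation (build GRCm38, used here for names and neighbours only), and for 17 the 3' end lies inside one, on the same strand for 5. Whether the counting used strand is not stated.

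TNF lowered the transcripts of most of these genes. Of the 78, 49 fell and 2 rose with TNF against DMSO, where 27.5% of all tested genes fell and 26.7% rose. The median log2 fold change was -0.26, against -0.01 over all tested genes, and 67 of 78 values were below 0. Of the 51 calls, 43 held whichever single library was left out. The change was modest for most genes: only Mrps6 and Mrpl38 changed more than 2-fold. Summed over the 78, the libraries with TNF had 4704, 4967, 4582 and 4979 CPM, against 6378, 6580.5, 6569.6 and 6216 CPM in the DMSO libraries. Every TNF library lay below every DMSO library.

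**Figure D1:**
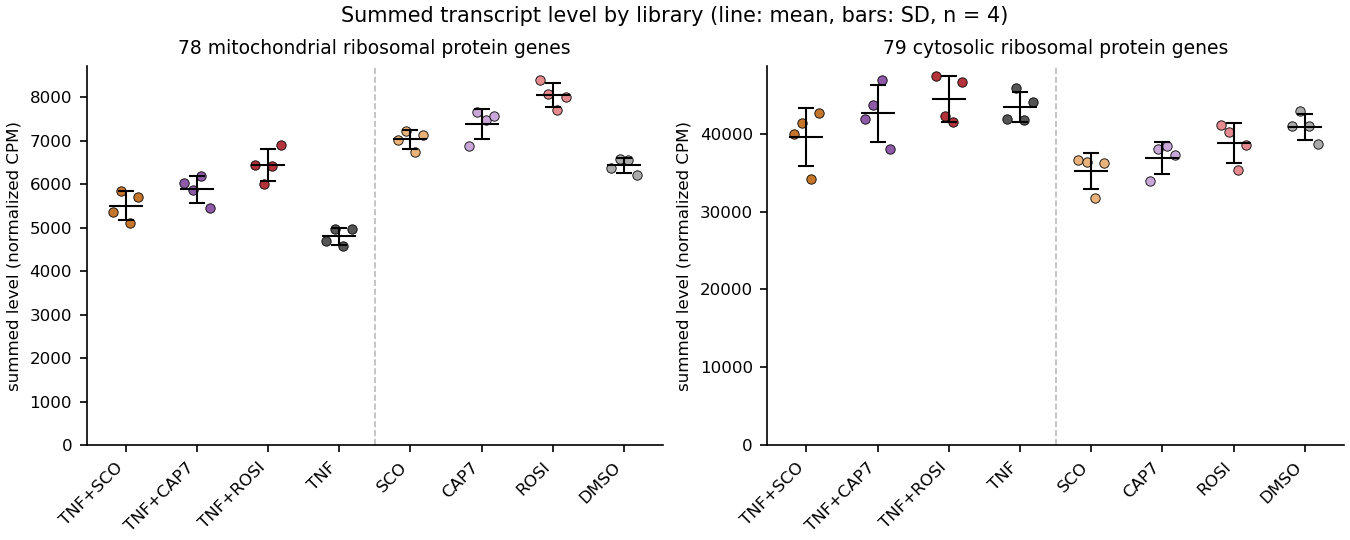
Summed level in TMM-scaled CPM of the 78 mitochondrial (left) and 79 cytosolic (right) ribosomal protein genes, 1 point per library in each of the 8 groups, with mean and SD (n = 4). The mitochondrial sum is lowest with TNF alone (4808 CPM on average) and highest with ROSI alone (8054 CPM); the cytosolic sum does not follow that order.

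Mrpl34, a protein of the large subunit, had 158, 145, 154 and 149 CPM in the TNF libraries, against 325, 280.1, 309 and 291 CPM in the DMSO libraries. The groups did not overlap, and the log2 fold change was -0.99 ± 0.069 (adjusted p = 2.62e-15). Mrpl12, the protein of the stalk that recruits translation factors, had 119, 137, 115 and 119.9 CPM with TNF and 231, 243, 247 and 218 CPM with DMSO. It fell by a like amount, with a fold change of -0.94 ± 0.082 (adjusted p = 1.16e-12). Mrpl15 had 66.3, 70.1, 64.9 and 71.0 CPM with TNF and 119, 119, 122 and 125 CPM with DMSO, -0.83 ± 0.064 (adjusted p = 3.68e-14), with narrow spread in both groups. Mrpl18, a protein of the central protuberance, fell by 0.89 on the log2 scale (adjusted p = 6.02e-12), and Mrpl51 by 0.93 (adjusted p = 6.74e-09).

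Mrps6, of the small subunit, had the lowest fold change, with 332, 324, 294 and 339 CPM in TNF libraries, against 783, 799, 784 and 758 CPM in DMSO libraries, -1.28 ± 0.065 (adjusted p = 2.12e-19). Its gene model overlaps on the same strand that of Slc5a3, a myo-inositol transporter, whose own count fell by 1.02 ± 0.091 (adjusted p = 2.58e-12). The Slc5a3 model does not cover the 3' end of Mrps6. That of Gm49711 does, on the same strand, with a mean of 0.19 CPM. Reads of overlapping models may be mixed, so the Mrps6 value is uncertain. Without Mrps6, the summed level still averaged 4486 ± 183 CPM with TNF and 5655 ± 159 CPM with DMSO (SD, n = 4 each). Mrps26 had 37.4, 43.6, 38.2 and 41.1 CPM in TNF libraries, against 67.7, 68.0, 70.5 and 72.9 CPM in DMSO libraries, -0.80 ± 0.071 (adjusted p = 2.22e-12).

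The exceptions were Mrpl38 and Mrpl52, both proteins of the central protuberance of the large subunit. Mrpl38 had 130.3, 136, 135 and 143 CPM with TNF, against 44.6, 42.5, 51.8 and 50.8 CPM with DMSO, and rose by 1.52 ± 0.074 (adjusted p = 4.79e-20). No other gene model overlaps it in the GENCODE annotation. Mrpl52 had 132, 148, 124 and 135 CPM with TNF and 83.8, 92.4, 92.9 and 78.9 CPM with DMSO, 0.63 ± 0.10 (adjusted p = 2.38e-06). In both genes every TNF library was above every DMSO library. The others of the 6 highest values among genes of at least 5 CPM did not pass the test: Mrpl13 had 0.24 ± 0.11 (adjusted p = 0.0722), Mrps10 0.11 ± 0.14, Mrpl40 0.09 ± 0.10 and Mrpl33 0.07 ± 0.088.

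Without TNF, all 3 compounds raised many of these genes, ROSI the most of them. ROSI raised 50 and lowered 1, where 18.4% of all tested genes rose and 19% fell. CAP7 raised 33 and lowered 0, against 15.2% and 15% of all genes. SCO raised 22 and lowered 0, against 10.3% and 8.99%. The medians were 0.13 for SCO, 0.19 for CAP7 and 0.32 for ROSI, where those over all genes were -0.01, -0.02 and -0.03. Scaled by library totals alone, which shifts the median of all genes to -0.08, -0.13 and -0.17, the counts higher and lower were 15 and 2 for SCO, 17 and 2 for CAP7, and 33 and 5 for ROSI, and the medians above that of all genes were 0.14, 0.20 and 0.35, as with TMM. Of the calls, 15 of 22 for SCO, 25 of 33 for CAP7 and 41 of 51 for ROSI held whichever single library was left out.

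The summed level was 7034 ± 209.9 CPM with SCO, 7396 ± 344 CPM with CAP7 and 8054 ± 284 CPM with ROSI, and 6436 ± 174 CPM with DMSO (SD, n = 4 each). At these TMM-scaled levels, every library with a compound was above every DMSO library, and every ROSI library was above every SCO and CAP7 library. The TMM factors ran from 1.0494 to 1.0531 in DMSO and from 0.9469 to 0.9686 in ROSI libraries, so this separation depends on the scaling. The SCO and CAP7 libraries overlapped.

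Among genes of at least 5 CPM, Mrpl15 had the highest fold change with each compound. It had 190.2, 182, 189 and 178 CPM with SCO, 198, 220.4, 206 and 210.2 with CAP7 and 231, 219.8, 229 and 225 with ROSI, against 119, 119, 122 and 125 with DMSO. The log2 fold changes were 0.61 ± 0.063 for SCO, 0.78 ± 0.063 for CAP7 and 0.90 ± 0.063 for ROSI, and no compound library overlapped DMSO. Mrpl20, another protein of the large subunit, had 168, 173, 155 and 177 CPM with SCO, 171, 209, 198 and 203 with CAP7 and 253, 243, 218 and 212 with ROSI, against 125, 135, 133 and 119.8 with DMSO. It rose by 0.39 ± 0.074, 0.61 ± 0.074 and 0.85 ± 0.074 in that order, and the ROSI libraries lay above all others.

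Mrpl34 had 408, 427, 411 and 397 CPM with SCO, 342, 388, 345 and 388 with CAP7 and 521, 526, 483 and 488 with ROSI, against 325, 280.1, 309 and 291 with DMSO. Here SCO (0.45 ± 0.068) gave higher values than CAP7 (0.28 ± 0.068) in every library, although the difference did not pass the test (adjusted p = 0.155, unadjusted 95% interval of the difference 0.03 to 0.30). Mrps2, at the mRNA path of the small subunit, rose by 0.44 ± 0.070 with SCO, 0.55 ± 0.070 with CAP7 and 0.70 ± 0.070 with ROSI. Mrpl55, a large subunit protein, rose by 0.56 ± 0.14, 0.53 ± 0.14 and 0.82 ± 0.14. Mrpl47 rose by 0.75 ± 0.088 with ROSI, although its 3' end lies inside the model of Actl6a on the opposite strand.

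The gene that fell with ROSI was Mrps6, at 696, 683, 659.7 and 677 CPM with ROSI and 783, 799, 784 and 758 CPM with DMSO, -0.20 ± 0.064 (adjusted p = 0.0117). Its overlapping neighbour Slc5a3 fell by 0.62 ± 0.091 with ROSI (adjusted p = 5.77e-07). Mrps21 had a lower fitted value with ROSI, -0.40 ± 0.17 (adjusted p = 0.0645), but did not pass the test with any compound. Mrpl52 and Mrpl33 were below 0 with each compound and not called, with -0.23 ± 0.10 and -0.11 ± 0.088 for ROSI.

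**Figure D2:**
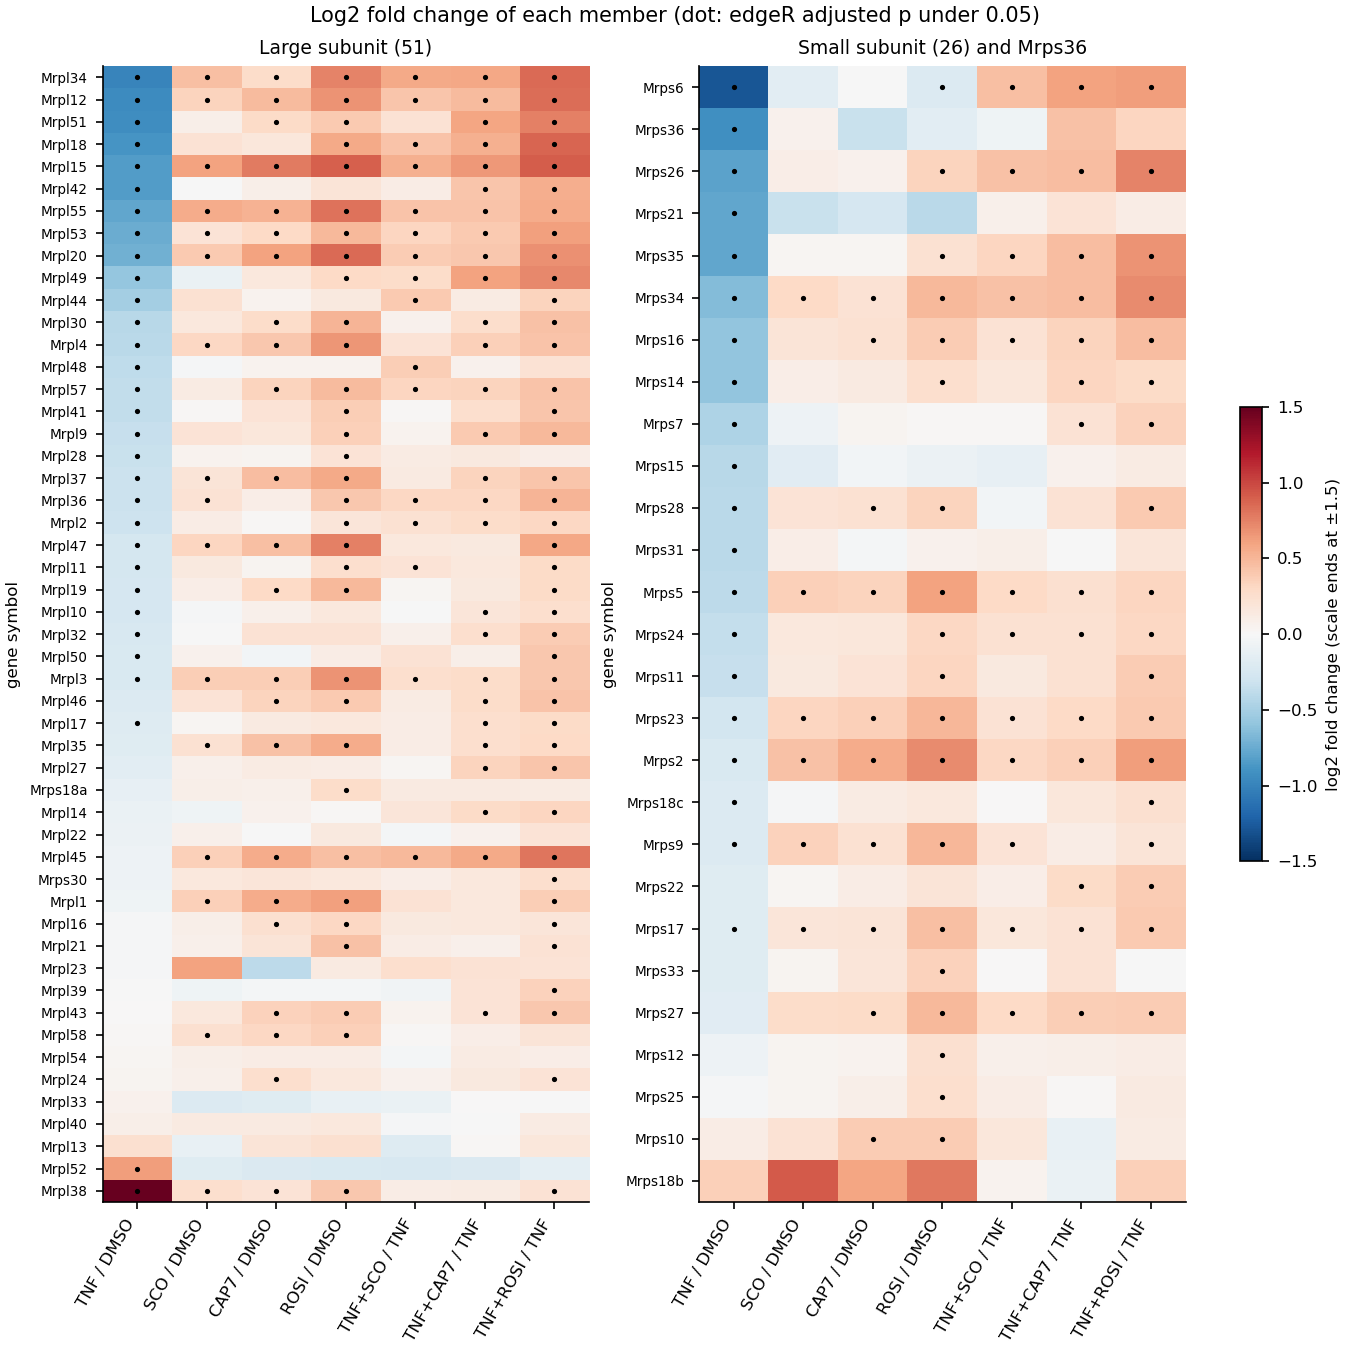
Log2 fold change of each of the 78 genes (rows, ordered by the TNF value within each subunit) in the 7 comparisons with a control (columns), red higher and blue lower, colour scale ending at ±1.5; a dot marks an adjusted p under 0.05 in edgeR. The TNF column is blue for 67 of 78 genes and the compound columns are mostly red, with 58 genes called higher for TNF+ROSI against TNF.

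In cells given TNF, the compounds again raised many of these genes, and ROSI the most. TNF+ROSI raised 58 and lowered 0 against TNF, where 19.6% of all tested genes rose and 16.3% fell. TNF+CAP7 raised 41 and lowered 0, against 18% and 14.2%, and TNF+SCO raised 28 and lowered 0, against 13.2% and 8.09%. The medians were 0.14 for TNF+SCO, 0.23 for TNF+CAP7 and 0.36 for TNF+ROSI, where those over all genes were 0.012, 0.001 and -0.001. With library totals alone, the counts higher and lower were 17 and 1 for TNF+SCO, 28 and 1 for TNF+CAP7, and 37 and 1 for TNF+ROSI. Of the calls, 17 of 28, 32 of 41 and 49 of 58 held whichever single library was left out.

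Mrpl15 had 87.9, 103, 99.6 and 105 CPM with TNF+SCO, 113, 95.5, 106 and 114 with TNF+CAP7 and 115, 125, 136 and 135 with TNF+ROSI, against 66.3, 70.1, 64.9 and 71.0 with TNF. It rose by 0.53 ± 0.063, 0.65 ± 0.063 and 0.91 ± 0.064 in that order, and the TNF+ROSI libraries were above all libraries of the other 3. Mrpl34 had 214, 232, 227 and 227 CPM with TNF+SCO, 234, 223, 248 and 204 with TNF+CAP7 and 269, 229.9, 289 and 302 with TNF+ROSI, against 158, 145, 154 and 149 with TNF. Its changes were 0.57 ± 0.069, 0.59 ± 0.069 and 0.85 ± 0.069, and the 3 compound groups overlapped while all lay above TNF.

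Mrpl12 had 212, 187, 232 and 246 CPM with TNF+ROSI, against 119, 137, 115 and 119.9 with TNF, a rise of 0.84 ± 0.081 (adjusted p = 4.91e-11). With TNF+SCO and TNF+CAP7 the rise was 0.41 ± 0.081 and 0.48 ± 0.081. Mrpl18 rose by 0.87 ± 0.081 and Mrpl51 by 0.75 ± 0.11 with TNF+ROSI. Mrps6 rose by 0.45 ± 0.064, 0.60 ± 0.064 and 0.63 ± 0.064, whereas its neighbour Slc5a3 had 0.38 ± 0.091, -0.08 ± 0.091 and -0.15 ± 0.091, of which only the first passed the test (adjusted p = 0.00158).

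Mrpl45, which links the peptide exit of the ribosome to the inner membrane, followed another course. TNF alone left it at 84.5, 95.1, 89.7 and 99.3 CPM, against 101, 101, 95.5 and 91.8 CPM with DMSO, -0.08 ± 0.063 (adjusted p = 0.31), with overlapping groups. Added to TNF, the compounds gave 122, 138, 121 and 137 CPM for TNF+SCO, 131, 146, 131 and 139 for TNF+CAP7 and 152, 167, 153 and 168 for TNF+ROSI. These were rises of 0.49 ± 0.062, 0.57 ± 0.062 and 0.80 ± 0.063 over TNF. Without TNF, the means were 125 ± 4.64 CPM with SCO, 143 ± 9.19 with CAP7 and 133 ± 3.62 with ROSI (SD, n = 4 each), all above the 97.2 ± 4.38 CPM with DMSO.

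Mrpl38, which rose with TNF, also rose with ROSI without TNF, with 61.3, 59.5, 66.1 and 64.6 CPM, against 44.6, 42.5, 51.8 and 50.8 with DMSO, 0.41 ± 0.074 (adjusted p = 2.34e-05). With TNF+ROSI it had 153, 169, 156 and 155 CPM, against 130.3, 136, 135 and 143 with TNF, 0.22 ± 0.070 (adjusted p = 0.0135). That call was lost without TNF replicate 1 or TNF+ROSI replicate 2, with a highest adjusted p of 0.0678. Mrpl52 had 112, 123, 88.9 and 131 CPM with TNF+SCO, 122, 117, 131 and 94.1 with TNF+CAP7 and 134, 114, 105 and 136 with TNF+ROSI, against 132, 148, 124 and 135 with TNF, and did not pass the test with any of them (-0.25 ± 0.10, -0.22 ± 0.10 and -0.14 ± 0.10).

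**Figure D3:**
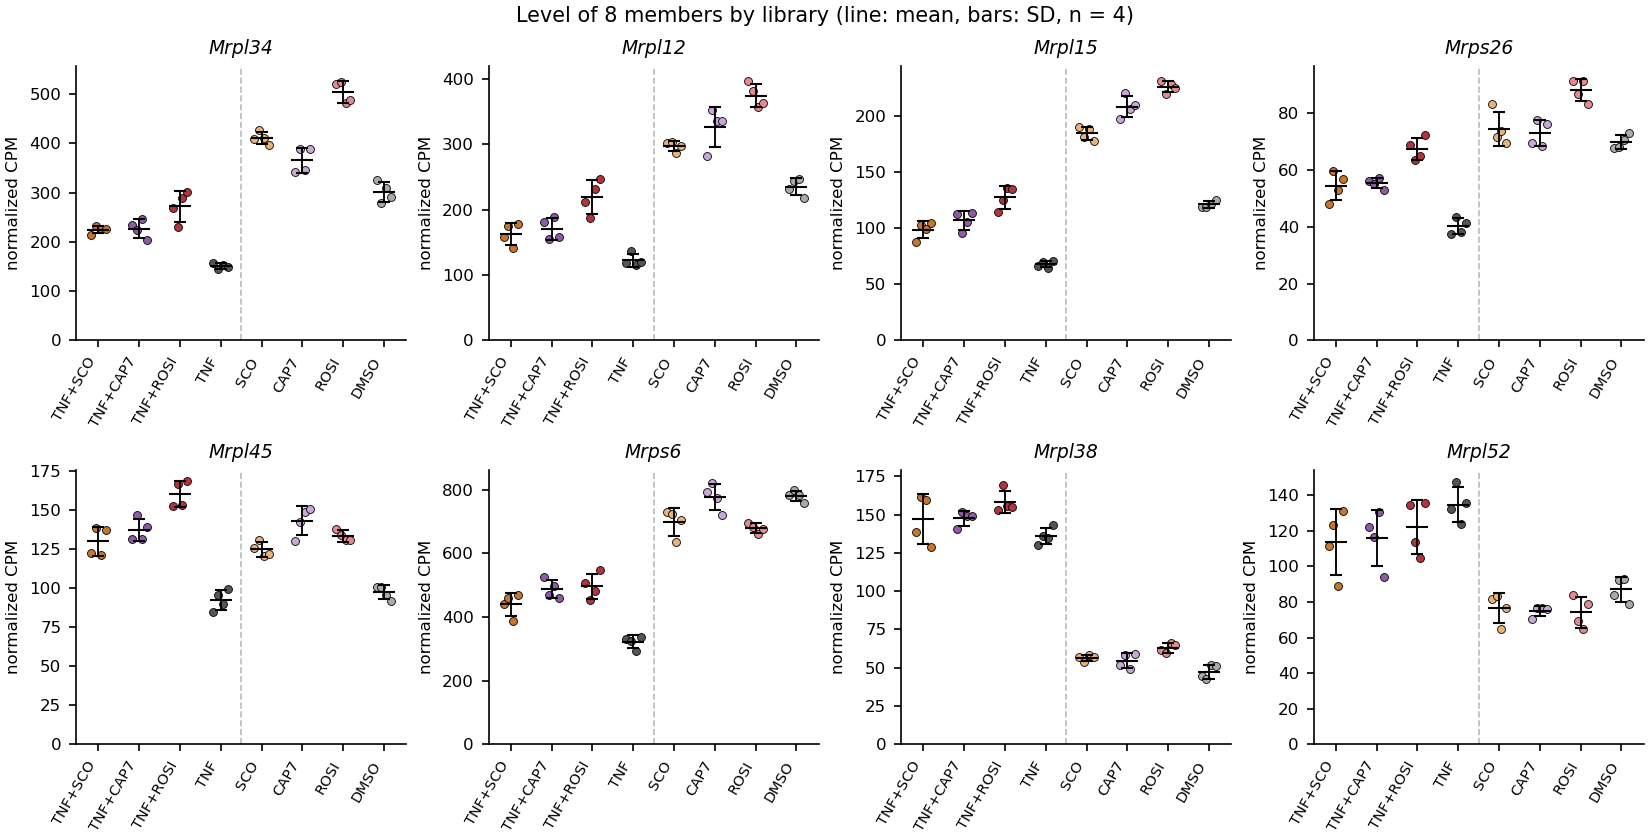
Level of 8 genes in TMM-scaled CPM, 1 point per library in each of the 8 groups, with mean and SD (n = 4). Mrpl34, Mrpl12, Mrpl15 and Mrps26 are lowest with TNF alone and highest with ROSI alone, Mrpl45 is highest with TNF+ROSI (160.1 CPM on average), and Mrpl38 is higher in all 4 groups with TNF than in all 4 without it.

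The fold changes of a compound without TNF and with TNF come from different libraries, so they can be set side by side gene by gene. For ROSI, 72 of the 78 genes had the same sign in both states, for CAP7 66 and for SCO 64. Values above 0 without and with TNF numbered 71 and 75 for ROSI, 67 and 73 for CAP7, and 63 and 67 for SCO. With so many above 0 in each state, a high count of same signs follows from these shifts alone. Across the 78 genes, Pearson's r between the states was 0.549 for ROSI, 0.492 for SCO and 0.285 for CAP7, and across the 75 genes of at least 5 CPM 0.566, 0.598 and 0.42. Genes are not independent replicates, and these values are a description.

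**Figure D4:**
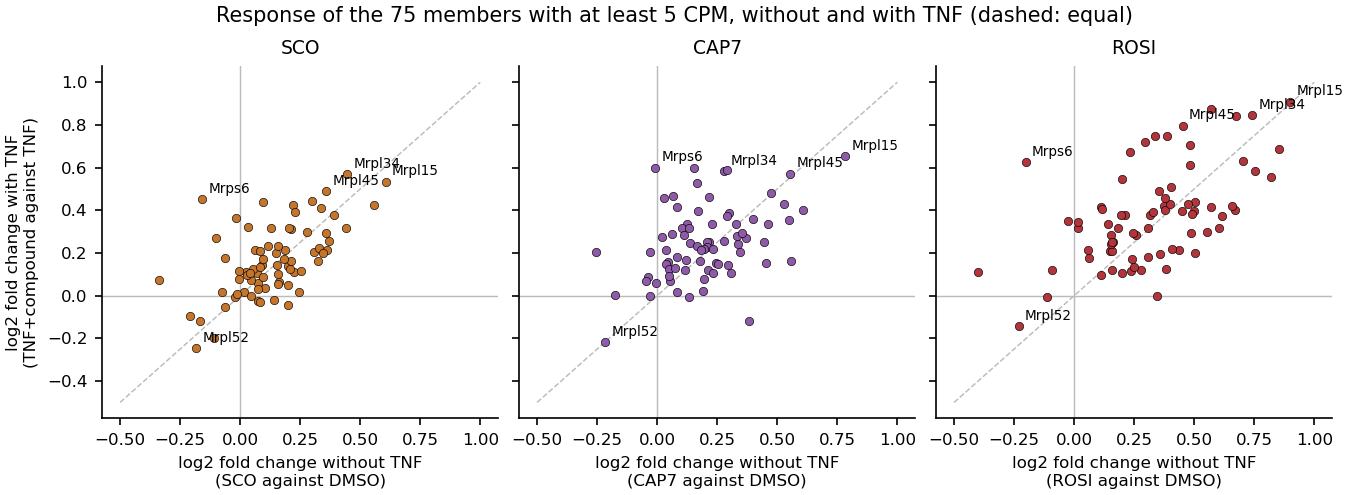
Log2 fold change with TNF (compound with TNF against TNF, vertical) against that without TNF (compound against DMSO, horizontal) for SCO, CAP7 and ROSI, 1 point for each of the 75 genes with a mean of at least 5 CPM. Most points lie in the upper right, Mrpl15 is far out for each compound, and Mrps6 is at or below 0 without TNF and above 0.4 with TNF.

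Among the compounds, ROSI gave higher levels than SCO in both states. Without TNF, SCO was lower than ROSI in 27 genes and higher in 0, where 7.33% of all tested genes were lower and 7.39% higher. With TNF, TNF+SCO was lower than TNF+ROSI in 31 and higher in 0, against 8.64% and 5.74%. The medians were -0.19 and -0.21. Among genes of at least 5 CPM, the lowest values without TNF were Mrpl20 -0.46 ± 0.073 (adjusted p = 1.78e-05), Mrpl47 -0.43 ± 0.087 and Mrpl49 -0.39 ± 0.087. With TNF they were Mrpl51 -0.54 ± 0.11, Mrpl49 -0.45 ± 0.086 and Mrpl18 -0.45 ± 0.081. The dose of each compound is not given in the sources used here, so these are differences between the treatments as applied.

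CAP7 was lower than ROSI in 16 genes and higher in 1, against 6.27% and 5.39% of all genes. The lowest among genes of at least 5 CPM were Mrpl34 -0.46 ± 0.068 (adjusted p = 6.12e-06) and Mrpl18 -0.41 ± 0.080. The gene higher with CAP7 was Mrps6, 0.19 ± 0.064 (adjusted p = 0.0411), a call lost without any 1 of 15 libraries: DMSO replicates 1 and 4, SCO replicate 1, CAP7 replicates 1 to 3, TNF+SCO replicate 4, and every ROSI and TNF replicate (highest adjusted p 0.127). The total of 17 calls was 7 without CAP7 replicate 1, 11 without CAP7 replicate 3, and 10 without either ROSI replicate 1 or ROSI replicate 2. TNF+CAP7 was lower than TNF+ROSI in 14 genes and higher in 0, against 5.09% and 3.48%, among them Mrpl47 -0.43 ± 0.087 (adjusted p = 0.000727) and Mrpl12 -0.36 ± 0.080. That count was 9 without TNF+CAP7 replicate 1, TNF+CAP7 replicate 4 or TNF+ROSI replicate 3, and 8 without TNF+ROSI replicate 4.

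SCO and CAP7 differed in few genes. Without TNF, SCO was higher in Mrpl23 and lower in Mrpl37, where 3.01% and 3.04% of all genes were called, above the 1.28% that 1 gene makes here. Mrpl37, a large subunit protein, had 76.6, 77.1, 76.1 and 72.5 CPM with SCO, against 83.7, 101, 83.9 and 94.8 with CAP7, -0.27 ± 0.065 (adjusted p = 0.00898). Mrpl23, named after its values were seen, averaged 3.57 ± 0.789 CPM with SCO and 1.83 ± 0.410 CPM with CAP7 (SD, n = 4 each), 0.99 ± 0.30 (adjusted p = 0.0384), at a level where few reads decide the value. The Mrpl37 call was lost without CAP7 replicate 2 (adjusted p = 0.0616), and the Mrpl23 call without any 1 of replicates 1, 2 and 4 of SCO or CAP7 (highest adjusted p 0.138). The count was 0 without CAP7 replicate 2, 1 without SCO replicate 1 or CAP7 replicate 4, and 4 without CAP7 replicate 1. For Mrpl15 the unadjusted 95% interval of the difference was -0.30 to -0.05 (adjusted p = 0.0875), and for Mrpl20 -0.36 to -0.06 (adjusted p = 0.0781).

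With TNF, TNF+SCO was lower than TNF+CAP7 in 5 genes and higher in 0, against 5.03% and 4.13% of all genes. These were Mrpl51 (-0.38 ± 0.11), Mrpl49 (-0.33 ± 0.086), Mrpl27 (-0.30 ± 0.084), Mrpl42 (-0.30 ± 0.095) and Mrpl37 (-0.20 ± 0.065), of which Mrpl37 was named after its values were seen. They make 6.41% of the 78. None of the 5 calls held whichever single library was left out, and the count was 0 without TNF+SCO replicate 3 or TNF+CAP7 replicate 3, 1 without TNF+SCO replicate 1, and 2 without TNF+CAP7 replicate 1 or 2. It was 3 without DMSO replicate 1 or TNF replicate 2, 3 or 4, and 9 without TNF+SCO replicate 2 or TNF+CAP7 replicate 4.

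The group means rose in the order control, SCO, CAP7, ROSI in 33 of the 78 genes without TNF (42.3%), against 11.3% of all tested genes, and in 45 with TNF (57.7%), against 12.3%. ROSI was the highest of the 4 in 59 genes without TNF and 64 with TNF, where the shares over all genes were 27.5% and 28.2%. Neighbours in this order often did not differ by the test, as the counts for SCO and CAP7 show.

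Few genes responded to a compound differently with and without TNF. The test of the difference called 2 genes higher and 0 lower for SCO, where 3.51% and 1.13% of all genes were called. It called 7 higher and 1 lower for CAP7, against 10.3% and 5.92%, and 6 higher and 2 lower for ROSI, against 10.1% and 4.51%. The shares of the 78 were 2.56% and 0% for SCO, 8.97% and 1.28% for CAP7 and 7.69% and 2.56% for ROSI, all below those of all genes. A positive value means that the fold change with the compound was higher with TNF than without it. For SCO the count was 1 without DMSO replicate 3, SCO replicate 2, 3 or 4, TNF replicate 1 or 3, or TNF+SCO replicate 2 or 4, and 3 without TNF+SCO replicate 3. For CAP7 it was 5 without DMSO replicate 3 or TNF+CAP7 replicate 3.

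Mrps6 and Mrps26 were called for all 3 compounds. For Mrps6 the differences were 0.61 ± 0.091 for SCO, 0.61 ± 0.091 for CAP7 and 0.83 ± 0.091 (adjusted p = 6.65e-09) for ROSI. Slc5a3 had 0.50 ± 0.13, 0.14 ± 0.13 and 0.48 ± 0.13 in the same tests. Mrps26 had 68.9, 63.6, 64.9 and 72.2 CPM with TNF+ROSI and 37.4, 43.6, 38.2 and 41.1 with TNF, a rise of 0.75 ± 0.071, and 91.2, 86.5, 91.3 and 83.1 CPM with ROSI and 67.7, 68.0, 70.5 and 72.9 with DMSO, a rise of 0.34 ± 0.070. The difference was 0.41 ± 0.099 (adjusted p = 0.00285), and for CAP7 0.40 ± 0.099. For SCO it was 0.35 ± 0.10 (adjusted p = 0.0337), a call lost without any 1 of 9 libraries: the 8 without which the SCO count was 1, and DMSO replicate 4 (highest adjusted p 0.103). Mrps35, at the mRNA path of the small subunit, and Mrpl49 were called for CAP7 and ROSI, and Mrpl45 for ROSI, 0.34 ± 0.089 (adjusted p = 0.00535).

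Set against DMSO, TNF+SCO and TNF+CAP7 had more of these genes lower than higher. With TNF+ROSI the share higher was near that of all tested genes, and the share lower was below it. TNF+SCO had 3 genes higher and 30 lower than DMSO, where 25.2% of all genes were higher and 22.3% lower. TNF+CAP7 had 5 higher and 20 lower, against 21.4% and 19.2%. TNF+ROSI had 19 higher and 6 lower (24.4% and 7.69% of the 78), against 24.9% and 21.1% of all genes. With library totals alone it had 6 higher and 23 lower, so its direction depends on the scaling. TNF+CAP7 had 3 higher and 29 lower with library totals alone. The TMM-scaled summed level was 5509.8 ± 337 CPM for TNF+SCO, 5882 ± 318 for TNF+CAP7 and 6444 ± 369.5 for TNF+ROSI, and 6436 ± 174 CPM for DMSO (SD, n = 4 each), and TNF+ROSI and DMSO overlapped. The TMM factors ran from 0.9416 to 0.961 for TNF+ROSI and from 1.0494 to 1.0531 for DMSO, so this overlap depends on the scaling too.

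Single genes differed in how near they came to DMSO with TMM scaling. Mrpl12 had 219 ± 25.8 CPM with TNF+ROSI and 235 ± 12.8 CPM with DMSO (SD, n = 4 each), -0.10 ± 0.080 (adjusted p = 0.339). Mrpl15 had 0.08 ± 0.063 and Mrpl34 -0.15 ± 0.068 in the same comparison, and neither was called. Mrps6 stayed lower at -0.65 ± 0.064, and Mrps21 at -0.67 ± 0.17. Mrpl45 was above DMSO at 0.72 ± 0.063, and Mrpl38 at 1.74 ± 0.074.

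Both subunits took part. The counts by role that follow are to be read against the 27.5% of all tested genes that fell and the 26.7% that rose with TNF, the 18.4% that rose with ROSI and the 19.6% that rose over TNF with TNF+ROSI. With TNF, 29 of 51 large subunit genes fell and 2 rose, and 19 of 26 small subunit genes fell and 0 rose, with medians of -0.24 and -0.35. With ROSI, 32 of 51 and 18 of 26 rose, with medians of 0.35 and 0.32, and with TNF+ROSI 40 of 51 and 18 of 26 rose over TNF. Of the 8 genes for the decoding site and mRNA path (among them Mrps12, Mrps5, Mrps2, Mrps34 and Mrps35), 7 fell with TNF, 7 rose with ROSI and 7 rose with TNF+ROSI. Mrps34 fell by 0.65 ± 0.078 (adjusted p = 3.92e-09), although the model of Nme3 on the same strand covers its 3' end. Mrps12, the decoding protein, had -0.07 ± 0.084 (adjusted p = 0.486) with TNF and rose by 0.24 ± 0.084 (adjusted p = 0.0246) with ROSI, a call lost without DMSO replicate 2 or ROSI replicate 3 (highest adjusted p 0.112).

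Of the 6 stalk genes (Mrpl1, Mrpl10, Mrpl11, Mrpl12, Mrpl53 and Mrpl54), 4 fell with TNF, 4 rose with ROSI and 5 rose with TNF+ROSI. Mrpl1, of the L1 stalk, was not called with TNF (-0.06 ± 0.088) and rose by 0.62 ± 0.087 with ROSI. Of the 6 genes for the exit tunnel and membrane contact, 1 fell with TNF (Mrpl44, -0.51 ± 0.13 (adjusted p = 0.000895)) and 4 rose with TNF+ROSI. Of the 8 genes counted with the central protuberance, 2 fell (Mrpl18 and Mrpl48) and 2 rose (Mrpl38 and Mrpl52) with TNF, each near the share of all tested genes (27.5% lower and 26.7% higher). Mrpl58, the peptidyl-tRNA hydrolase that frees stalled ribosomes, had 0.02 ± 0.083 with TNF and rose by 0.25 ± 0.084 with SCO, 0.31 ± 0.082 with CAP7 and 0.36 ± 0.083 with ROSI. The SCO call was lost without any 1 of replicates 1, 2 and 4 of DMSO or SCO (highest adjusted p 0.156). Mrps36 fell by 0.92 ± 0.30 (adjusted p = 0.00914) with TNF and was not called with any compound against DMSO or against TNF.

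Over the 8 group means, 54 of the 78 genes had a Pearson's r above 0.8 with the mean profile of all 78, and Mrpl52, Mrpl33 and Mrpl38 had one below 0. Each gene is part of that profile, which raises its r, and the share of all tested genes above 0.8 was not counted. The tested genes outside the set with the profile most like it were Grpel1 (r = 0.996 over the 8 group means), Gm45716 (0.994), Acsl1 (0.993), Decr1 (0.993) and Acot6 (0.993).

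Other genes of mitochondrial protein synthesis were counted from lists written from general knowledge, and are to be read against the same shares of all tested genes. Of 13 tested translation factors, 10 fell and 0 rose with TNF, among them Oxa1l, the insertase of the inner membrane (-0.51 ± 0.080 (adjusted p = 1.09e-06)), and Mtfmt, which formylates the initiator tRNA (-0.76 ± 0.13). With ROSI 7 rose, and with TNF+ROSI 9 rose over TNF, among them the elongation factors Gfm1 (0.49 ± 0.075) and Gfm2 (0.51 ± 0.10). With library totals alone, 3 rose and 3 fell with ROSI, and 5 rose and 1 fell with TNF+ROSI. Of 20 genes for mitochondrial aminoacyl-tRNA synthetases and the glutamyl-tRNA amidotransferase, 10 fell and 2 rose with TNF, and 9 rose and 0 fell over TNF with TNF+ROSI (4 and 2 with library totals alone). Of 24 genes for ribosome assembly and rRNA modification, 7 fell with TNF, such as Mtg1 (-0.66 ± 0.11), 4 rose and 4 fell with ROSI (0 and 6 with library totals alone), and 10 rose with TNF+ROSI (4 with library totals alone). The counts with TNF and ROSI were near the shares of all tested genes, 27.5% lower with TNF, and 18.4% higher and 19% lower with ROSI. Of the 5 ribosomal proteins with other symbols, 2 fell (Dap3 and Aurkaip1) and 1 rose (Chchd1) with TNF, and 1 rose with TNF+ROSI (Ptcd3, 0.52 ± 0.13).

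Of 15 genes for mtDNA transcription and RNA stability, 6 fell and 1 rose with TNF, 9 rose and 1 fell with ROSI (4 and 1 with library totals alone), and 10 rose with TNF+ROSI (8 with library totals alone). The transcription elongation factor Tefm fell by 1.21 ± 0.13 (adjusted p = 1.31e-10) with TNF and rose by 1.03 ± 0.12 with TNF+ROSI over TNF. Of 8 tested mtDNA-encoded mRNAs, 3 fell and 1 rose with TNF: mt-Nd1 had -0.40 ± 0.084 and mt-Nd5 0.46 ± 0.066. All 4 of the mtDNA mRNAs called with TNF+ROSI rose over TNF, among them these 2. Neither mitochondrial rRNA was called with ROSI, and mt-Rnr2 had 0.31 ± 0.12 (adjusted p = 0.0224) with TNF. For RNA captured by its poly(A) tail, rRNA counts are a poor measure of level. Of 9 regulators of nuclear genes for mitochondrial proteins, 3 fell and 4 rose with TNF. Esrra (ERRα) had -1.53 ± 0.081, Ppargc1b -2.00 ± 0.12 and Ppargc1a -1.57 ± 0.15, while Pprc1, the PGC-1-related coactivator, had 1.25 ± 0.14. With TNF+ROSI over TNF, Esrra, Ppargc1b and Ppargc1a rose by 1.27 ± 0.080, 1.66 ± 0.12 and 1.96 ± 0.15.

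The cytosolic ribosomal protein genes gave other counts. Of 78 tested cytosolic ribosomal protein genes, 20 rose and 3 fell with TNF, with a median of 0.09. The count that rose was near the 26.7% of all tested genes, and the count that fell was below the 27.5% of all. With SCO 0 rose and 34 fell, with CAP7 1 and 30, and with ROSI 3 and 19, where 8.99%, 15% and 19% of all tested genes fell. Over TNF, 0 rose and 8 fell with TNF+SCO, where 8.09% of all genes fell, 2 and 1 with TNF+CAP7, and 5 and 0 with TNF+ROSI. The counts that fell with ROSI and with TNF+SCO were not far above the shares of all tested genes. With library totals alone, TNF+ROSI had 0 higher and 17 lower, and TNF had 23 higher and 3 lower. Near-identical copies of cytosolic ribosomal protein genes are many and how reads with several matches were counted is not stated, so these counts are uncertain.

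**Figure D5:**
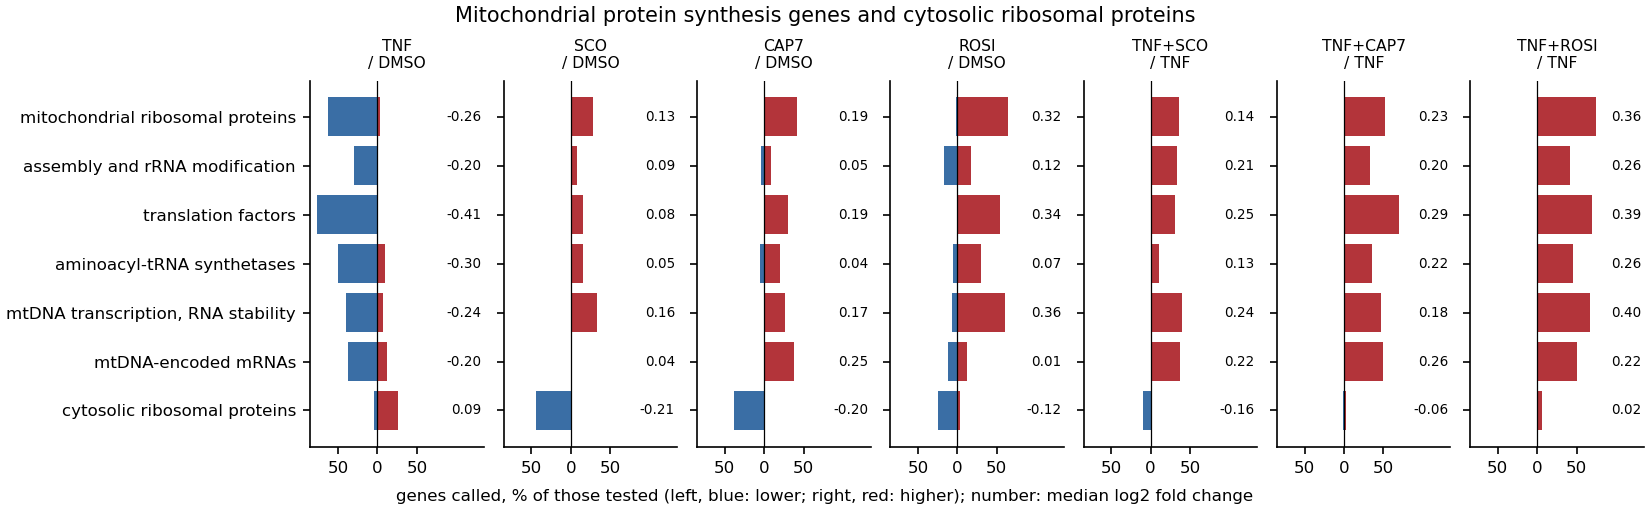
Share of tested genes called higher (red, right) and lower (blue, left), in percent, for the mitochondrial ribosomal protein genes and 6 other lists in the 7 comparisons with a control; the number at the right of each bar is the median log2 fold change. The 6 mitochondrial lists have more blue than red with TNF and more red than blue with the compounds, except that the mtDNA mRNAs have no call with SCO, and they and the assembly list have as many blue as red calls with ROSI, while the cytosolic ribosomal proteins have more blue than red with SCO, CAP7 and ROSI, and with TNF a red share near that of all tested genes (26.7%).

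Markers of several cell types and states also differed between the groups, not all in the direction of the ribosomal protein genes. All 8 adipocyte markers (among them Adipoq, Plin1 and Cidec) fell with TNF, with a summed level of 12245 to 14419 CPM in TNF libraries, against 40638 to 42925 CPM in DMSO libraries. All 8 rose over TNF with each compound, and their summed level was 32864 to 40137 CPM with TNF+SCO, 35514 to 44214 with TNF+CAP7 and 52006 to 64929.9 with TNF+ROSI. Fabp4 made up most of the sum with TNF+ROSI, at 42189 of 57583 CPM on average. Fabp4 and Cd36 averaged more with TNF+ROSI than with DMSO. Adipoq (4961 against 9633 CPM), Lpl, Retn, Slc2a4, Plin1 and Cidec averaged less than with DMSO. Without TNF, 4 rose with SCO, 6 with CAP7 and 5 with ROSI, and the sums were 62466 to 70471 CPM with SCO, 52216 to 65325 with CAP7 and 69564 to 83289.6 with ROSI. Of 5 tested preadipocyte and fibroblast markers, 3 fell and 1 (Pdgfra) rose with TNF, and their sum was 1204 to 1340 CPM with TNF, against 1879 to 2309 CPM with DMSO. Without TNF, 4 fell with SCO, 5 with CAP7 and 5 with ROSI, among them Col1a1, Dlk1, Thy1 and Ly6a with each, and the sums were 1336 to 1488 CPM with SCO, 1163 to 1419 with CAP7 and 1376 to 1565 with ROSI. Over TNF, 4 fell with TNF+SCO, 2 with TNF+CAP7 and 3 with TNF+ROSI, and the sums were 862 to 1129 CPM, 942 to 1322 and 1037 to 1224 in that order. Of 5 proliferation markers, 4 rose with TNF, with sums of 148 to 194.5 CPM, against 103 to 113 CPM with DMSO. Without TNF, 4 fell with SCO and 5 with CAP7, among them Cdk1, Top2a and Mki67 with both, while with ROSI 1 rose (Rrm2) and 1 fell (Cdk1). Their sums were 70.2 to 78.4 CPM with SCO, 52.6 to 67.7 with CAP7 and 99.5 to 115 with ROSI. Over TNF, 0 fell with TNF+SCO, 5 with TNF+CAP7 and 1 with TNF+ROSI, with sums of 138 to 159 CPM, 90.3 to 127 and 131 to 157 in that order. The 6 macrophage and leukocyte markers summed to 10.6 to 14.1 CPM with TNF and 1.78 to 4.03 CPM with DMSO, with Adgre1 at 0 in all libraries, and 1 of 3 tested (Cd68) rose. Their sums were 1.1 to 3.2 CPM over the SCO, CAP7 and ROSI libraries and 5.2 to 8.19 CPM over those of the compounds with TNF, where Cd68 fell over TNF with each compound. The 5 endothelial and mural markers summed to 2.25 to 2.9 CPM with TNF and 4.2 to 6.34 CPM with DMSO, and to 1.52 to 4.73 CPM over all libraries with a compound. The part of these shifts in the ribosomal protein results was not tested.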

How the data were processed

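The authors deposited 1 table of raw read counts per gene for the 32 libraries (QuantSeq 3' mRNA-Seq, per the labels' protocols). Per the submitters' processing notes, reads were processed with limma 3.60.6 in R 4.4.1, HTSeq 2.0.5, STAR 2.7.11b and cutadapt 4.9, listed with no role or order, and build GRCm39. The handling of strand and of reads mapping to several places is not given in the sources used here.

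The counts were fitted with edgeR 4.0.16 (R 4.3.3) by quasi-likelihood F tests, with TMM factors, filterByExpr by group, 1 mean per group and all 32 libraries (24 residual degrees of freedom; the common biological coefficient of variation was 0.1116). Adjusted p-values are Benjamini-Hochberg over the 14428 genes tested in each comparison, with 0.05 as the threshold, and each of the 19 comparisons was adjusted on its own. The procedure was tested on simulated data. The labels call the replicates biological, without saying whether they were separate differentiations, so p-values measure the spread between these libraries. No library pair held identical values. The labels tie replicate numbers to no shared batch, and the numbers were not used in the main fit. Intervals are 95% confidence intervals from the fit.

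The members and gene lists were chosen with earlier results of these data known. Members named were, in each comparison with a control, the 6 highest and 6 lowest log2 fold changes among those with a mean of at least 5 CPM (4 and 4 in other comparisons), those against the majority, and the role groups. From each other list, at most 4 with the lowest p were named. Likeness was the correlation of group-mean log2(CPM + 0.5) with the mean of the standardised members. Alternatives were RLE factors, library totals alone, no filter, at least 5 CPM in 4 libraries, only the groups compared, limma-voom (limma 3.58.1), DESeq2 1.42.0, a replicate block, and each library left out. Promoter sequences came from a RefSeq table, and the motifs were fixed letter patterns searched in them on both strands.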

Additional observations from a re-analysis of the deposited data

Results flagged for a closer look

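Libraries stood apart from the other 3 of their group in 4 of the 96 groups of 4 examined (Dixon's test at 95%), where chance alone flags about 1 in 20. Mrpl18 had 124.4 CPM in CAP7 replicate 1, against 143.5 to 144.5 CPM in the other CAP7 libraries. Mrpl52 had 70.7 CPM in the same library, against 75.9 to 76.7 CPM in the others. Mrpl38 had 169.1 CPM in TNF+ROSI replicate 2, against 153.1 to 155.7 CPM in the others. Mrpl37 had 63.0 CPM in TNF+SCO replicate 2, against 56.1 to 56.7 CPM in the others.

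The log2 fold change of a compound differed between cells with and without TNF by edgeR's test of the difference in 18 cases over 12 genes. For each compound, the shares of the set called higher and lower were below those of all tested genes, as given above. For Mrps6 the difference was 0.61 with SCO, 0.61 with CAP7 and 0.83 with ROSI, and for Mrps26 it was 0.35, 0.40 and 0.41. For Mrps35 it was 0.43 with CAP7 and 0.44 with ROSI, and for Mrpl49 0.45 and 0.43. For Mrpl45 it was 0.34 with ROSI. These held whichever single library was left out, except Mrps26 with SCO.

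The other 7 calls were each lost without at least 1 library. With CAP7 they were Mrpl1 (-0.40), Mrpl2 (0.25), Mrpl18 (0.36) and Mrpl34 (0.30). With ROSI they were Mrpl3 (-0.27), Mrps9 (-0.30) and Mrpl14 (0.30). Mrpl1 had 0.16 ± 0.086 for TNF+CAP7 against TNF and 0.56 ± 0.087 for CAP7 against DMSO. Mrpl3 had 0.40 ± 0.064 for TNF+ROSI against TNF and 0.67 ± 0.065 for ROSI against DMSO.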

How the results depend on the processing

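No called gene reversed under any alternative run, nor did the median over the 78 genes in the 7 comparisons with a control; for TNF+ROSI against DMSO it was 0.06, and -0.08 with library totals alone. With library totals alone, the number of genes called was 19 for CAP7 against DMSO, 18 for TNF+SCO and 38 for TNF+ROSI against TNF, 17 for SCO against ROSI, 9 for TNF+CAP7 against TNF+ROSI and 3 for TNF+SCO against TNF+CAP7. With that scaling the median of all genes was -0.17 for ROSI against DMSO (-0.03 with TMM) and -0.16 for TNF+ROSI against TNF (-0.001 with TMM), and the members' median lay above it by 0.35 and 0.36 under both scalings. Without a filter, 9 were called for TNF+CAP7 against TNF+ROSI and 1 for the interaction of SCO with TNF. With at least 5 CPM in 4 libraries, 9 were called for TNF+SCO against TNF+CAP7. With only the groups compared, 4 were called for SCO against CAP7, 6 for TNF+CAP7 against TNF+ROSI, 2 for TNF+SCO against TNF+CAP7 and 1 for the interaction of SCO. DESeq2 called 6 for SCO against CAP7 and 9 for TNF+SCO against TNF+CAP7. Apart from the use of fewer libraries or genes in these fits, the cause was not tested.

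Leaving out 1 library gave 45 to 53 calls for TNF, 16 to 24 for SCO, 26 to 37 for CAP7 and 47 to 53 for ROSI against DMSO. It gave 20 to 30 for TNF+SCO, 36 to 46 for TNF+CAP7 and 50 to 58 for TNF+ROSI against TNF. Between compounds it gave 20 to 30 (SCO against ROSI), 7 to 21 (CAP7 against ROSI), 0 to 4 (SCO against CAP7), 21 to 38 (TNF+SCO against TNF+ROSI), 8 to 14 (TNF+CAP7 against TNF+ROSI) and 0 to 9 (TNF+SCO against TNF+CAP7). For the interactions it gave 1 to 3 (SCO), 5 to 9 (CAP7) and 6 to 11 (ROSI), and against DMSO 28 to 34 (TNF+SCO), 21 to 28 (TNF+CAP7) and 18 to 26 (TNF+ROSI).

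Deviations of same-numbered libraries from their group means had a mean r of 0.012, against -0.004 for different numbers, and 3 of 112 same-numbered pairs were above 0.1. On average over the other groups, 16 of 32 libraries correlated best with their own number, a hint from the data and not from the design. The fit with a replicate block called 52 genes for TNF, 21 for SCO and 59 for TNF+ROSI against TNF. It lost 1 of the 481 single-gene calls of the main fit over the 19 comparisons, and calls that it added are not part of the 481. Of those calls, 130 were lost with library totals alone, 72 without a filter, 41 with only the groups compared, 10 with RLE factors, 9 with limma-voom, 6 with the stricter filter and 5 with DESeq2. The following checks were chosen after seeing the data: the sum without Mrps6 (log2 ratio of means -0.33 for TNF against DMSO) and the other lists under both other scalings. Calls on genes under 5 CPM rest on few reads.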
